A study of Sylvia borin with 20 samples.

Results

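The NR4A nuclear receptors (NR4A1, NR4A2 and NR4A3) and the GADD45 genes (GADD45A, GADD45B and GADD45G) were examined in whole blood of migrating garden warblers. The 6 genes were chosen by name among 20898 gene symbols, with their difference between fat and lean birds already known, so that this difference is described here and not tested. Blood was taken from 10 wild birds on day 5 of a spring stopover, when they were fat, and on day 1, when they were lean, which gave 10 fat and 10 lean libraries. The birds had been chosen for a low body mass at capture. Each was kept in its own cage with free access to mealworms and water between the samplings, and blood was drawn in the morning at both times. Day 1 and day 5 also differ in time spent in captivity. Day 1 was also closer to capture in mist nets and to the barrier crossing that the study describes before arrival. Refueling state, days in the cage and time since capture and flight therefore cannot be told apart in this design. Libraries are named by bird, from 1 to 10, after the replicate number in the sample labels. That equal numbers mark the same bird was assumed, since the sample titles do not state it.

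NR4A receptors are transcription factors of the nuclear receptor superfamily that act without a known classical ligand. Their genes are early response genes in mammals, transcribed soon after signals that raise cyclic AMP or calcium, and the 3 receptors bind closely related DNA elements. GADD45 proteins are small, mainly nuclear proteins without known enzymatic activity. In mammals they are induced by DNA damage and other stresses, and they act through partners such as the kinase MAP3K4 (an activator of stress MAP kinase cascades), the replication clamp PCNA and the cell cycle kinase CDK1. GADD45 proteins have also been linked to active DNA demethylation. Avian blood contains nucleated erythrocytes, thrombocytes and white cells, and whole blood RNA mixes all of them. In such bulk samples fewer cells of a type and less RNA per cell cannot be told apart.

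The reads had been mapped to the zebra finch genome. In the 1 library read for positions, each of the 6 genes had 1 line, on 6 different sequences of that genome. The number of lines per gene was not checked in the other libraries. In the coordinates of the tables, NR4A1 runs from 139956 to 145734 on the plus strand. The other genes are on the minus strand, NR4A2 from 37457660 to 37463938, NR4A3 from 92623127 to 92654126, GADD45A from 1074903 to 1076830, GADD45B from 4320284 to 4322118 and GADD45G from 9575674 to 9580446. The values cover whole genes. Levels are FPKM (fragments scaled to the length of the gene and to the size of the library, so that genes of different length can be compared) divided by a median-of-ratio factor per library, and are called normalized FPKM below. Fold changes are differences between the condition means of log2(normalized FPKM + 0.1), a scale that understates the change of genes with low levels. They are therefore not the log2 ratio of the unlogged means printed beside them. Their standard errors come from a fit without a term for bird, which leaves the pairing of the libraries unused. Depth lay between 1.27 and 3.16 gigabases of aligned reads in fat libraries and between 0.882 and 4.71 gigabases in lean libraries. Symbols above 0 numbered between 6467 and 7667 in fat libraries (median 7267.5) and between 6776 and 8623 in lean libraries (median 8123.5). Scaling factors lay between 0.754 and 1.07 in fat and between 1.06 and 1.28 in lean libraries. The part of these library differences in the levels of genes near 0 was not tested. The tables do not state read numbers per gene, and none were estimated from their coverage values. No counting error is therefore attached to a level, and 0 means only that a gene is listed at 0.

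GADD45B was by far the most abundant of the 6 genes and was lower in fat blood in all 10 birds. Its level was 151.6, 303 and 474 normalized FPKM (lowest, median and highest) in fat libraries, against 339, 1505 and 3574 in lean libraries. The ranges overlapped only through lean birds 7 and 9, whose 339 and 346 lay below the fat values of birds 3, 4 and 6, while the other 8 lean libraries were above every fat library. The mean was 292 ± 98.9 in fat and 1501 ± 1004 in lean libraries (SD, n = 10 each). The log2 fold change of fat over lean birds was −2.09 with a standard error of 0.36. GADD45B ranked between 67 and 218 among all gene symbols in fat libraries and between 13 and 70 in lean libraries. It took between 0.0127% and 0.0559% of all TPM in fat libraries and between 0.0381% and 0.537% in lean libraries. Lean libraries also varied more among themselves, with an SD on the log2 scale of 0.51 in fat and 1.14 in lean libraries.

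NR4A1 was lower in fat blood in all 10 birds. It measured 0.141, 2.44 and 4.04 normalized FPKM (lowest, median and highest) in fat libraries, against 0.525, 10.99 and 49.0 in lean libraries. Of the lean libraries, 9 were above the highest fat library, and the exception was bird 7, which held the lowest value of both conditions. The mean was 2.19 ± 1.20 in fat and 16.1 ± 14.6 in lean libraries (SD, n = 10 each), a log2 fold change of −2.48 with a standard error of 0.59.

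NR4A3 had no overlap between the conditions. Its 10 fat libraries lay between 0.0598 and 1.00 normalized FPKM (median 0.363) and its 10 lean libraries between 1.16 and 17.5 (median 2.51). The mean was 0.448 ± 0.317 in fat and 4.89 ± 5.58 in lean libraries, a log2 fold change of −2.83 with a standard error of 0.47. Among all 7800 genes fitted, 4 genes, or 0.0513%, had every fat library below every lean library, and NR4A3 was chosen with its difference known. Lean birds 1 and 2 held the 2 highest values, 17.5 and 12.6, and the next lean library was at 3.94.

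NR4A2 was at or near 0 in fat blood. It was listed at 0 in 3 fat libraries and 1 lean library, that of bird 3. Its level was at most 0.341 normalized FPKM in fat libraries (median 0.0799) and reached 2.65 in lean libraries (median 1.10), with 8 lean libraries above the highest fat library. The mean was 0.134 ± 0.135 in fat and 1.17 ± 0.91 in lean libraries (SD, n = 10 each), and the log2 fold change was −2.16 with a standard error of 0.52. It was lower when fat in 9 of 10 birds and higher in bird 3, by 0.69 on the log2 scale. At these levels the fold change depends on the pseudocount, with −3.19 at a pseudocount of 0.01 and −0.82 at 1. For NR4A3 a pseudocount of 1 gave −1.64.

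For GADD45G a difference between the conditions was not clear, and GADD45A was too often listed at 0 to be judged. GADD45G was at 0.154, 2.04 and 5.00 normalized FPKM (lowest, median and highest) in fat libraries, against 0.334, 2.30 and 6.56 in lean libraries, with nearly complete overlap. Its mean was 2.21 ± 1.69 in fat and 2.80 ± 1.85 in lean libraries, and it was lower in 7 birds and higher in 3, with a log2 fold change of −0.54 and a standard error of 0.53. The 95% confidence interval of that fold change ran from −1.64 to 0.56. GADD45A was listed at 0 in 8 fat and 9 lean libraries. The fat libraries of birds 2 and 5 held 0.132 and 0.365 normalized FPKM, and the lean library of bird 6 held 0.395. With a mean deposited FPKM of 0.0474 it fell under the filter of 0.1, so that 5 of the 6 genes were fitted.

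**Figure D1:**
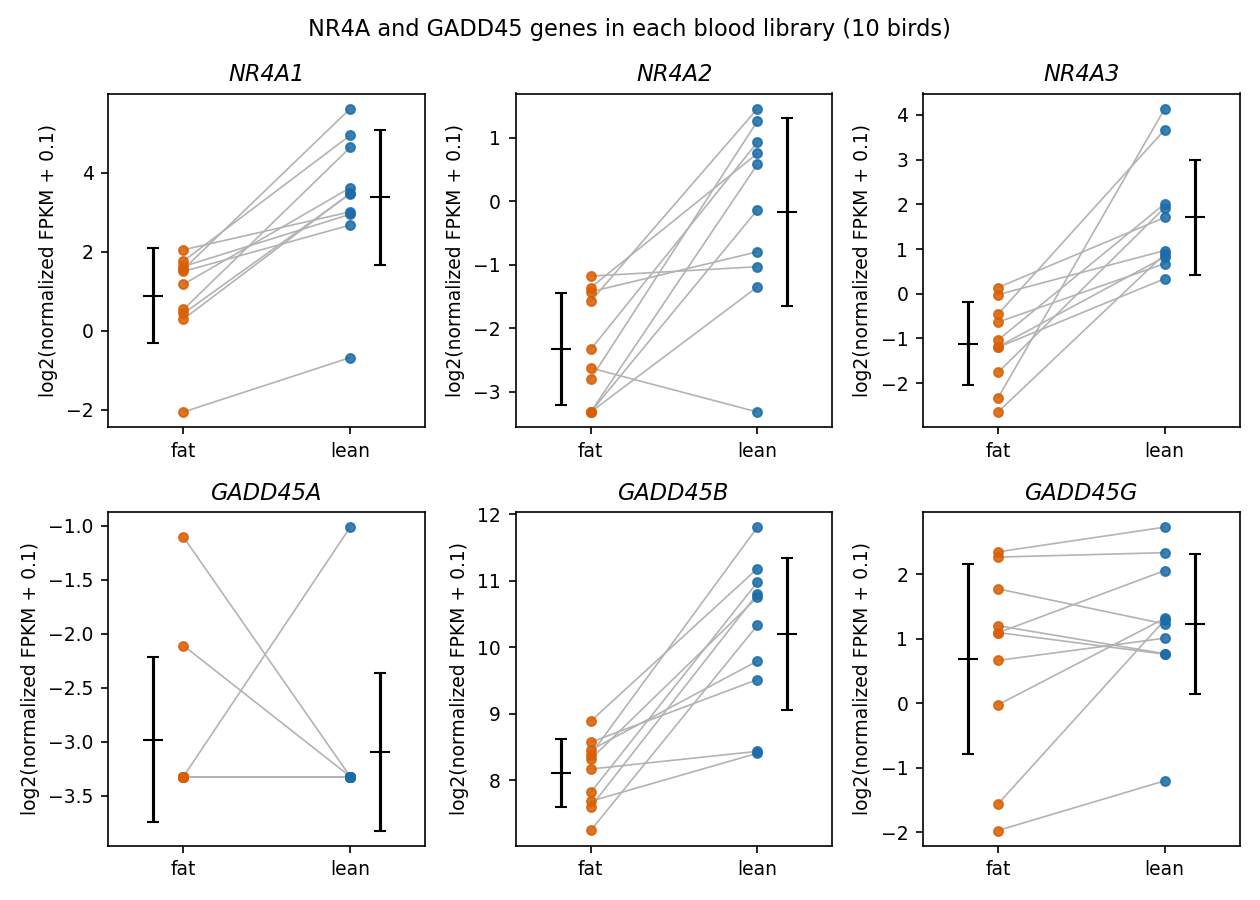
Levels of the 6 genes as log2(normalized FPKM + 0.1), with fat libraries left of lean libraries in each panel, 1 point per library and grey lines joining the 2 libraries of a bird. Black bars are the mean ± SD over 10 libraries. All 10 lines run lower on the fat side for NR4A1, NR4A3 and GADD45B, 9 of 10 for NR4A2 and 7 of 10 for GADD45G, while GADD45A is at its floor in 17 of 20 libraries.

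Of the 5 genes fitted, 4 were called lower in fat birds in the comparison of all genes (limma, Benjamini-Hochberg adjusted p under 0.05 over all genes), where 3.27% of 7800 genes were called lower and 1.49% higher. Because the genes were chosen on this contrast, nothing is read from that count. It was 2 of 5 without bird 1, 2, 5, 8 or 10, when NR4A1 and NR4A2 were not called, and 4 of 5 without any other bird. In the runs with 2 of 5, between 73 and 154 of all genes were called, beside 371 with all birds. Fold changes there lay between −2.63 and −2.31 for NR4A1 and −2.17 and −1.95 for NR4A2 (adjusted p from 0.050032 to 0.0783 from limma). Without any other bird, between 123 and 400 of all genes were called. The count of the 5 genes was also 2 with no filter on low values (NR4A1 and NR4A2 not called), where 120 of 12705 genes were called. It was 3 of 5 with a pseudocount of 0.01 or quantile normalization (NR4A2 not called). When bird was added to the model it was 4 of 5, beside 8.08% of all genes called lower. The standard errors were then 0.33 for NR4A1, 0.48 for NR4A2, 0.47 for NR4A3, 0.31 for GADD45B and 0.30 for GADD45G. NR4A1, NR4A3 and GADD45B were each lower in all 10 birds, as were 2.14% of the genes fitted. The median log2 fold change of all 7800 genes was −0.10, and it was −0.35 for unscaled FPKM, −0.43 for unscaled TPM and 0.04 after quantile normalization. Under these 3 scalings the fold changes lay between −2.86 and −2.31 for NR4A1, −2.43 and −1.90 for NR4A2, −3.18 and −2.54 for NR4A3, −2.49 and −2.29 for GADD45B, and −0.93 and −0.32 for GADD45G.

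The size of the change differed widely between birds. Within birds, GADD45B changed by between −3.42 (bird 2) and −0.27 (bird 9) on the log2 scale, with a mean of −2.09 ± 1.17 (SD, n = 10 birds). NR4A1 changed by between −4.10 (bird 4) and −0.96 (bird 6), with a mean of −2.48 ± 1.20. NR4A3 changed by between −6.47 (bird 1) and −0.99 (bird 9), with a mean of −2.83 ± 1.70. Bird 9 had the smallest change of GADD45B and of NR4A3, and bird 2 was among the 3 largest falls for NR4A2, NR4A3 and GADD45B. Bird 4 had the largest fall of NR4A1 and only −0.94 for GADD45B, while bird 10 had −1.17 for NR4A1 and −3.20 for GADD45B. The order of the birds was therefore not shared by all genes.

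**Figure D2:**
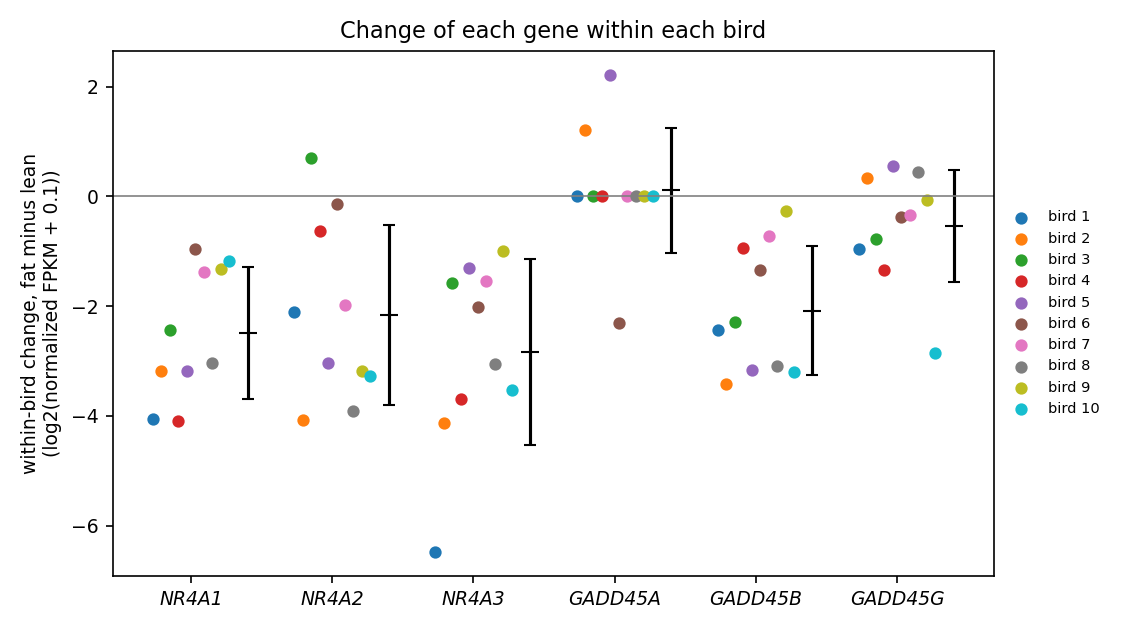
Within-bird change (fat minus lean, in units of log2(normalized FPKM + 0.1)) of the 6 genes, with 1 coloured point per bird and the mean ± SD over 10 birds in black. NR4A1, NR4A3 and GADD45B lie below 0 in all 10 birds, NR4A2 in 9, and GADD45G is spread around −0.54 ± 1.02.

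The order of the 6 genes by level changed between the conditions. GADD45B was above each of the other genes in all 20 libraries. NR4A1 exceeded NR4A2 in all 20 libraries, and it exceeded NR4A3 in 9 of 10 fat and 9 of 10 lean libraries. NR4A1 was above GADD45G in 5 of 10 fat libraries and in 9 of 10 lean libraries, so that the 2 genes were not separated in fat blood. NR4A3 was above GADD45G in 1 of 10 fat and 5 of 10 lean libraries. Among 41 nuclear receptor genes present in the tables, NR4A1 ranked 7 by mean normalized FPKM in fat libraries and 2 in lean libraries, where the glucocorticoid receptor NR3C1 was the highest with 17.1 in fat and 18.2 in lean libraries. NR4A3 ranked 10 in fat and 5 in lean libraries, and NR4A2 ranked 15 in fat and 9 in lean libraries.

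The covariation of the 5 fitted genes was examined among the 10 fat libraries, among the 10 lean libraries and among the 10 within-bird changes, which gave 30 relations of 10 gene pairs. The contrast that chose the genes plays no part within a condition. None of the relations passed adjustment over all 30 (permutation tests with 100000 resamples, two-sided, Benjamini-Hochberg), and 2 had an unadjusted p under 0.05 by Pearson r and 1 by Spearman rho. The closest relation was that of NR4A1 and NR4A3 in lean libraries, with r = 0.78 (permutation p = 0.0043, adjusted 0.129) and rho = 0.78 (permutation p = 0.0107, adjusted 0.32). It was 0.84 without the 2 libraries farthest from the median of NR4A1. It reached an adjusted p of 0.0213 with r = 0.91 when bird 7 was left out, and 0.0429 with a pseudocount of 1, but was 0.716 with r = 0.72 without bird 1, 0.869 with r = 0.76 without bird 2 and 0.18 with r = 0.77 after quantile normalization. By r with NR4A1 in lean libraries, NR4A3 ranked 20 among all genes fitted. The same 2 genes had r = 0.01 in fat libraries (permutation p = 0.986, rho = 0.12 with permutation p = 0.758), where NR4A3 was at most 1.00 normalized FPKM. Their within-bird changes had r = 0.60 (permutation p = 0.0591, adjusted 0.591) and rho = 0.44 (permutation p = 0.205, adjusted 0.583). Whether r differed between the conditions was not tested.

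NR4A1 and GADD45B had r = 0.43 in fat libraries (permutation p = 0.214, adjusted 0.697, rho = 0.42 with permutation p = 0.233) and r = 0.62 in lean libraries (permutation p = 0.0489, adjusted 0.591, rho = 0.54 with permutation p = 0.112). Without the 2 libraries farthest from the median of NR4A1 these were 0.29 and 0.36, so that the relation in lean blood rested in part on those libraries. NR4A3 and GADD45B had r = 0.30 in fat libraries (permutation p = 0.402, rho = 0.31 with permutation p = 0.385) and 0.54 in lean libraries (permutation p = 0.0994, rho = 0.36 with permutation p = 0.314), or −0.21 and 0.32 without the 2 farthest libraries. NR4A2 and GADD45B had positive coefficients, r = 0.41 in fat libraries (permutation p = 0.234, rho = 0.48 with permutation p = 0.16) and 0.30 in lean libraries (permutation p = 0.401, rho = 0.49 with permutation p = 0.155), or 0.31 and 0.76 without the 2 farthest libraries. By r with NR4A2, GADD45B ranked 1176 in fat and 2351 in lean libraries among all genes fitted. GADD45G and GADD45B had negative coefficients, r = −0.17 in fat libraries (permutation p = 0.632, rho = −0.16 with permutation p = 0.655) and −0.44 in lean libraries (permutation p = 0.205, rho = −0.55 with permutation p = 0.104). The sign in fat libraries turned without the 2 farthest libraries (r = 0.39), and in lean libraries it did not (r = −0.50). The adjusted p of these relations with GADD45B were at least 0.583. Positive coefficients numbered 8 of 10 pairs in fat libraries, 8 of 10 in lean libraries and 7 of 10 for the within-bird changes. With 10 birds, relations of moderate strength could not be separated from the spread.

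**Figure D3:**
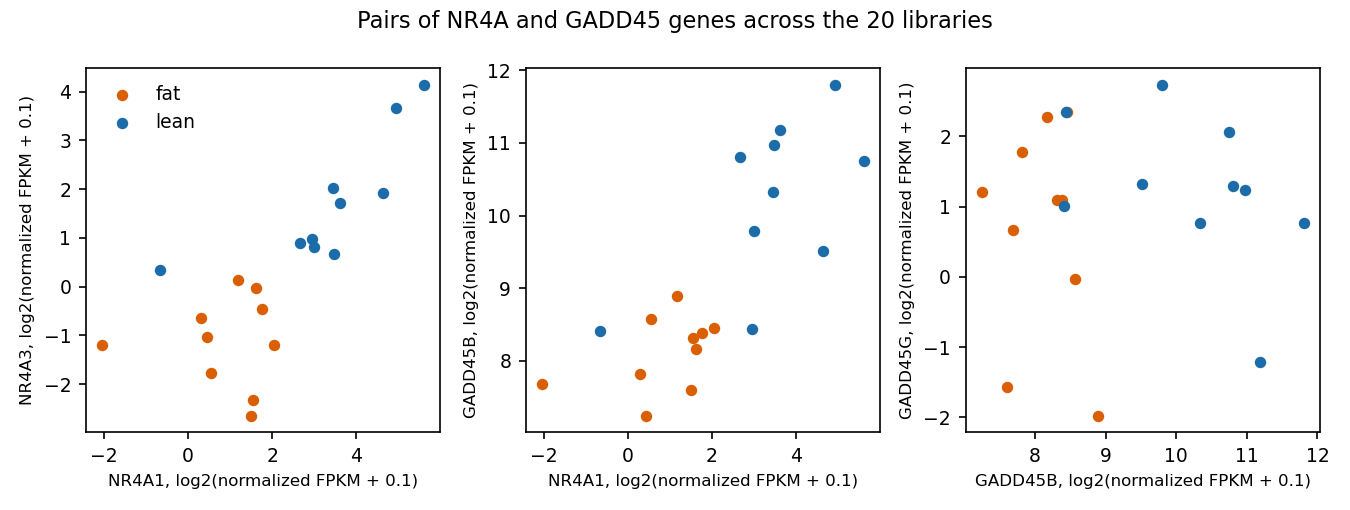
Levels of 3 gene pairs as log2(normalized FPKM + 0.1) on both axes, with 1 point per library in orange for fat and in blue for lean birds. The r of NR4A1 and NR4A3 is 0.01 in fat and 0.78 in lean libraries, neither past adjustment and their difference not tested, and the isolated lean point at the lower left of the left and middle panels is bird 7.

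Whether a bird kept its rank between the samplings was examined after the values had been seen. Across birds, the fat and lean levels of GADD45G had r = 0.72 (permutation p = 0.016, adjusted 0.0798 over the 5 genes) and rho = 0.50 (permutation p = 0.144, adjusted 0.718). The r was 0.28 without the 2 birds farthest from the median, so that it rested on those birds. For NR4A1 r was 0.71 (permutation p = 0.0543, adjusted 0.136) and rho 0.24 (permutation p = 0.514), and without the 2 farthest birds r was −0.21. For GADD45B, NR4A2 and NR4A3 r was 0.17, 0.10 and −0.16 (permutation p from 0.641 to 0.788), with rho of 0.20, 0.09 and 0.01 (permutation p from 0.584 to 1). The median r of all genes fitted was 0.31.

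For each fitted gene, the 5 genes with the most similar pattern were listed, out of those whose deposited FPKM averaged 1 or more, by Pearson r over the 20 libraries after removal of the condition means. The conditions were pooled without equalizing their spread, so that the more variable condition weighs more in r. On the log2 scale the SD was larger in lean libraries for NR4A1, NR4A2, NR4A3 and GADD45B, and larger in fat libraries for GADD45G. No r per condition was computed for these lists. These coefficients describe libraries that share their scaling and depth. They are the highest among 4604 or 4605 candidate genes, so that part of their size comes from that choice, and none was tested. The median r over the candidates lay between −0.000986 and 0.0143. GADD45B was most like BCL6 (r = 0.89), a transcriptional repressor, followed by FAM83H (0.88), the protein phosphatase PPM1G (0.85), the translation initiation factor EIF1 (0.84) and the calcium-binding chaperone CALR of the endoplasmic reticulum (0.84). With any 1 bird left out these 5 coefficients stayed at or above 0.77. NR4A3 was most like CREM (0.73), which encodes a cyclic AMP responsive transcription factor, and then RHOF (0.73), VAV3 (0.72) and the survival factor BCL2L1 (0.71). CREM fell to 0.56 without bird 1. For NR4A1 the list was DFFB (0.84), TAMALIN (0.81), BECN1 (0.80), GNL2 (0.77) and ALYREF (0.75). Those of DFFB, TAMALIN and GNL2 rested on bird 7, without which r was 0.31, 0.36 and 0.40, while BECN1, an autophagy gene, and ALYREF, an mRNA export factor, stayed at or above 0.69. NR4A2 was most like PGD (0.80), an enzyme of the pentose phosphate pathway, RBMS2 (0.80), PLEKHA1 (0.76), the lysosomal membrane gene LAMP2 (0.74) and LOC100221697 (0.71). Without bird 3, whose lean library listed NR4A2 at 0, RBMS2, PLEKHA1 and LAMP2 fell to 0.68, 0.59 and 0.57. PGD and LOC100221697 stayed at or above 0.67 with any 1 bird left out. GADD45G was most like PHF6 (0.75), the Golgi ion pump ATP2C1 (0.75), CBFA2T2 (0.75), CBWD1 (0.74) and TMEM230 (0.73), and without bird 3 PHF6 and CBFA2T2 fell to 0.49 and 0.48.

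The other genes of these pathways were counted in 6 lists drawn from general knowledge, with earlier results of these data known, so that their shares are no independent evidence. The filter used the mean of both conditions, so that a gene near 0 in fat blood could pass through its lean libraries alone. Of the genes with fold changes given below, FOXO1, HDAC4, TET3, NR2F2 and RORB had fat means under 0.1 normalized FPKM. Of all genes fitted, 57.0% had a negative fold change. A total of 9 genes were called, 7 lower and 2 higher in fat birds, or 8.74% of the listed genes fitted, beside 4.76% of all genes. With bird as a term 25 were called, beside 13.3% of all genes. The count ran from 4 (without bird 1, 5, 8 or 10) to 12 (without bird 9), and was 5 without bird 2, 3, 6 or 7. That of all genes called, 371 with all birds, ran from 73 (without bird 10) to 400 (without bird 9).

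Among early genes that respond to cyclic AMP signaling and CREB, 25 of 36 were fitted. Fold changes were negative for 22 of them, beside 57.0% of all genes. Among these 22, EGR2, EGR3, CITED2, TRIB1 and KLF4 had fat means under 0.1 normalized FPKM. They passed the filter through their lean libraries, so that their sign was largely set by it. The 4 genes called were all lower in fat birds, beside 3.27% of all genes, and with bird as a term 9 were lower and 1 higher, beside 8.08% of all genes called lower. The count ran from 2 (without bird 1, 5, 8 or 10) to 5 (without bird 9). The median log2 fold change was −0.98, beside −0.10 for all genes. MAFF, a small MAF transcription factor, was at 0.140 ± 0.156 normalized FPKM in fat libraries, where 4 of 10 were listed at 0, against 1.597 ± 1.19 in lean libraries (SD, n = 10 each). Its log2 fold change was −2.76 (SE 0.44, adjusted p = 0.00275 from limma), lower in 9 of 10 birds, and it was −4.28 at a pseudocount of 0.01 and −1.07 at 1. KLF6, a zinc finger transcription factor, was at 7.58 ± 2.86 in fat and 17.03 ± 6.48 in lean libraries, a log2 fold change of −1.14 (adjusted p = 0.00718 from limma), lower in all 10 birds. JUND, a subunit of AP-1, was at 3.79 ± 1.69 in fat and 15.1 ± 12.5 in lean libraries and fell by 1.69 on the log2 scale in the same test (adjusted p = 0.0309). Its call was lost without bird 1, 2, 3, 5, 8 or 10, with an adjusted p of up to 0.0712. NFIL3, a leucine zipper repressor named because it completes the 4 genes called, was at 3.21 ± 1.71 in fat and 6.97 ± 2.69 in lean libraries. It had an adjusted p of 0.0477 from limma, and of up to 0.116 without any 1 bird other than bird 9.

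Among regulators upstream of NR4A transcription (CREB, MEF2 and their kinases, phosphatases and deacetylases), 23 of 28 were fitted. Fold changes were negative for 19 of them and 3 genes were called, 2 lower and 1 higher in fat birds (4 lower and 1 higher with bird as a term). Among these 19, HDAC4 and NFATC2 had fat means under 0.1 normalized FPKM and passed the filter through their lean libraries. The shares over all genes were 57.0% with a negative fold change, 4.76% called and 13.3% called with bird as a term. RPS6KA1, a kinase downstream of ERK, was at 0.205 ± 0.148 normalized FPKM in fat and 0.765 ± 0.648 in lean libraries (log2 fold change −1.43, adjusted p = 0.0441 from limma). HDAC4, a deacetylase that represses MEF2, was at 0.0942 ± 0.0768 in fat and 0.300 ± 0.104 in lean libraries (log2 fold change −1.11, adjusted p = 0.0376 from limma). CAMK2G, a calcium and calmodulin dependent kinase, was at 39.5 ± 5.93 in fat and 28.8 ± 6.71 in lean libraries, higher in all 10 birds (log2 fold change 0.47, adjusted p = 0.0422 from limma). At pseudocounts of 0.01 and 1 the log2 fold change was −2.25 and −0.49 for RPS6KA1, which was then not called, and −2.12 and −0.25 for HDAC4, which was called only at 1. None of the 3 calls was stable, since each was lost without bird 1, 2, 3, 5, 6, 7, 8 or 10, with adjusted p of up to 0.112, and that of RPS6KA1 also without bird 4. All 3 were also lost with quantile normalization (adjusted p from 0.113 to 0.281), and that of CAMK2G with unscaled TPM, where its log2 fold change was 0.07. With all birds and bird as a term, the 3 genes were called (adjusted p from 0.0117 to 0.0231 from limma). CREB1, which encodes CREB itself, had a log2 fold change of −0.40 (adjusted p = 0.569 from limma), and MEF2A one of −0.14 (adjusted p = 0.638).

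Among regulators upstream of GADD45 genes, 14 of 21 were fitted, with 7 lower and 7 higher in fat birds and a median of −0.01. Of all genes, 57.0% were lower. CEBPB, a transcription factor of stress and inflammatory responses, was the only call, beside 4.76% of all genes called. It was at 2.33 ± 1.24 normalized FPKM in fat and 10.03 ± 8.11 in lean libraries, lower in all 10 birds (log2 fold change −1.95, standard error 0.34, adjusted p = 0.00373 from limma), and it was called without any 1 bird. FOXO1 and STAT3 had log2 fold changes of −1.16 and −0.36 (adjusted p = 0.111 and 0.0707 from limma), which passed with bird as a term (adjusted p = 0.0441 and 0.0346), where 4 genes were called lower and 1 higher. Over all genes, 13.3% were called with bird as a term.

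Among partners of GADD45 proteins and genes of the MAP kinase cascade, 16 of 23 were fitted and 1 was called, beside 4.76% of all genes. EEF1A1, a translation elongation factor reported as a GADD45 partner in mammals, was at 2023 ± 488 normalized FPKM in fat and 1087 ± 334 in lean libraries, higher in all 10 birds (log2 fold change 0.92, adjusted p = 0.00685 from limma), and was called without any 1 bird. MAP3K7, a stress kinase, was at 25.3 ± 4.80 in fat and 17.7 ± 4.69 in lean libraries (adjusted p = 0.0644 from limma, 0.00636 with bird as a term). CRIP1 was at 18.7 ± 16.3 in fat and 38.5 ± 21.7 in lean libraries (adjusted p = 0.083 from limma, 0.0166 with bird as a term). The median log2 fold change of the list was −0.09, close to that of all genes, and its sign turned to 0.04 with quantile normalization.

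No gene of the DNA demethylation list was called among 8 of 15 fitted (limma, 2 at an unadjusted p under 0.05). Over all 7800 genes, 4.76% were called and 1731 had an unadjusted p under 0.05 in the same test. TET2 and TET3, which oxidize methylated cytosine, had log2 fold changes of −0.91 and −0.87 (adjusted p = 0.166 and 0.107 from limma), and TET3 alone passed with bird as a term (adjusted p = 0.0475). ERCC5, a repair endonuclease, had one of 0.47 (adjusted p = 0.306). Of 44 other nuclear receptors, 19 were fitted and 0 were called (limma, 6 at an unadjusted p under 0.05), with 13 lower in fat birds and a median of −0.13. Among these 13, NR1D1, NR2F2, NR3C2, NR5A1, ESRRG and RORB had fat means under 0.1 normalized FPKM. Their sign was largely set by the filter, which they passed through their lean libraries. Of all genes, 57.0% were lower. NR2C1, NR2F2 (listed at 0 in 8 fat and 4 lean libraries) and RORB had the smallest p, with log2 fold changes of 0.72, −1.73 and −1.24 (adjusted p from 0.103 to 0.12 from limma). NR1H3, an oxysterol receptor named after its value was seen, was the only call with bird as a term, higher in fat birds (log2 fold change 0.59, adjusted p = 0.0342), beside 13.3% of all genes called.

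**Figure D4:**
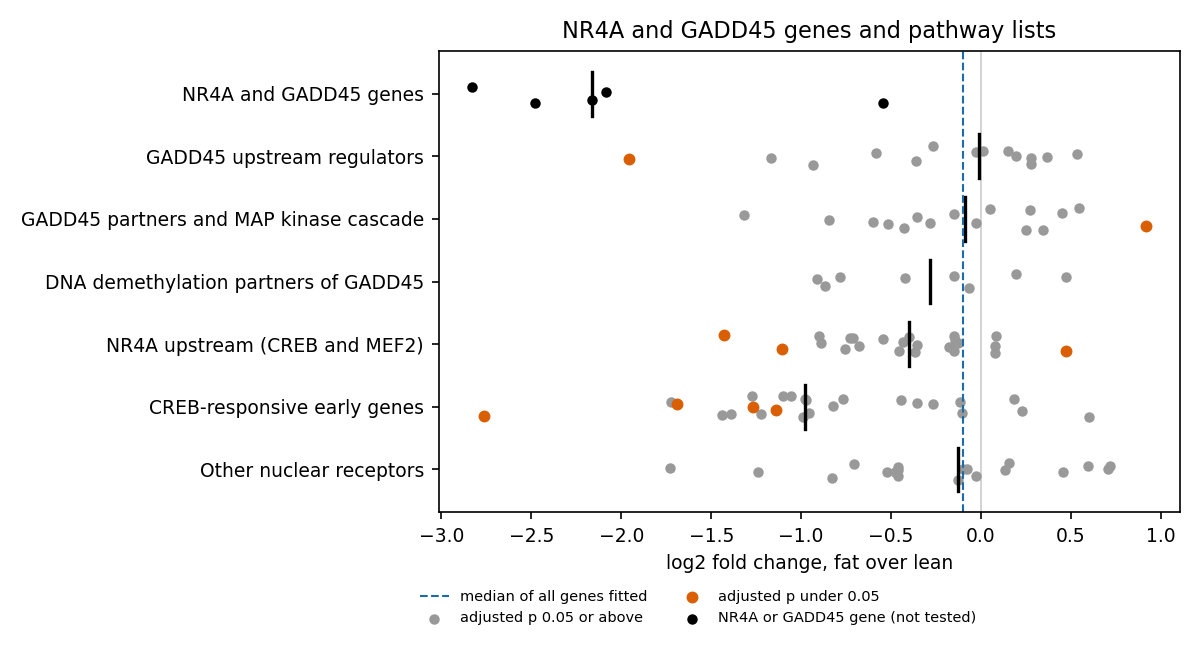
Log2 fold change (fat over lean) of the 5 fitted NR4A and GADD45 genes and of the genes of 6 pathway lists, 1 point per gene. Black bars are list medians, the dashed line is the median of all 7800 genes (−0.10), and orange points of the pathway lists passed an adjusted p of 0.05. Points of the NR4A and GADD45 genes are black whether or not the gene was called. The early gene list has a median of −0.98 and that of GADD45 upstream regulators −0.01, while NR4A3, NR4A1, NR4A2 and GADD45B lie between −2.83 and −2.09.

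Markers of blood cell types also moved between the conditions. The summed level of 11 of 15 erythroid markers found in the tables was between 167625 and 301778 normalized FPKM in fat libraries and between 123711 and 188259 in lean libraries, and higher when fat in all 10 birds. Such a sum of unlogged levels is set mainly by its most abundant genes, and the erythroid list includes globin genes. Of the 11 erythroid markers fitted, 1 was lower in fat birds, and their median log2 fold change was 0.31. The summed level of 11 of 15 thrombocyte markers was between 73.2 and 99.5 in fat and between 63.3 and 199 in lean libraries, lower when fat in 8 birds, with THBS1 at 0 in every library. Heterophil markers (4 of 12 found) summed to between 7.18 and 17.3 in fat and between 12.7 and 44.8 in lean libraries, lower when fat in 9 birds, with LYG2 at 0 in every library. Only 3 heterophil markers were fitted, of which 2 were lower in fat birds. Monocyte markers (10 of 13 found) summed to between 0.602 and 9.27 in fat and between 1.68 and 23.9 in lean libraries, lower when fat in 8 birds, with MARCO, CD14, LYZ and C1QB at 0 in every library. B cell markers (10 of 12 found) summed to between 0.813 and 10.3 in fat and between 1.86 and 15.8 in lean libraries, lower when fat in 8 birds, with BLK and TNFRSF13B at 0 in every library. T cell markers (11 of 14 found) summed to between 10.7 and 16.2 in fat and between 6.06 and 24.3 in lean libraries, lower when fat in 6 birds, with CD3E, CD5 and CD8B at 0 in every library. Of the markers fitted, 7 of 8 were lower in fat birds for thrombocytes and 5 of 5 for monocytes. For B cells 3 of 4 were lower and for T cells 4 of 5, beside 57.0% of all genes. The part of these shifts in the levels of NR4A and GADD45 genes was not tested.

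Within a condition, the 5 genes were compared with 9 library measures (depth, symbols above 0, the scaling factor and the 6 marker sums), which gave 90 relations. None passed adjustment over the 90, and 4 had an unadjusted p under 0.05 by r. The closest was GADD45B with the erythroid marker sum in lean libraries, with r = −0.87 (permutation p = 0.00162, adjusted 0.146) and rho = −0.89 (permutation p = 0.0012, adjusted 0.108). Leaving out the 2 libraries farthest from the median of that sum gave r = −0.61. In fat libraries the same relation had r = −0.57 (permutation p = 0.0886, adjusted 0.731) and rho = −0.68 (permutation p = 0.0348, adjusted 0.604). NR4A3 and the B cell marker sum had r = 0.77 in lean libraries (permutation p = 0.00684, adjusted 0.308) and rho = 0.70 (permutation p = 0.0301, adjusted 0.604), and leaving out the 2 farthest libraries gave r = 0.73. Only 4 of the 10 B cell markers in that sum passed the filter.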

How the data were processed

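Whole blood RNA libraries of 10 garden warblers, sampled fat (day 5) and lean (day 1), were analyzed. The authors trimmed reads with ERNE 2, mapped them with STAR to the zebra finch genome and quantified genes with StringTie, versions not given in the sources used here. The deposited tables hold coverage signal (mean depth per base), FPKM and TPM for each gene and library, not normalized between libraries. Read counts are not in these tables, so no count model was used. Lines of a symbol were summed, A median-of-ratio factor per library, from 4487 symbols never at 0, scaled the FPKM. The filter left 7800 genes whose mean FPKM before scaling was 0.1 or more, on the scale log2(FPKM + 0.1). Fat and lean libraries were compared by the trended linear model of limma 3.58.1 (R 4.3.3, two-sided, Benjamini-Hochberg). This model had no term for bird unless stated, also when 1 bird was left out. Correlations used 100000 permutations in Python 3.11.15 (numpy 2.4.6, pandas 2.3.3, scipy 1.17.1, matplotlib 3.10.9). Depth was the median ratio of coverage to FPKM over lines with FPKM above 1. The comparison was tested on simulated data.

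The study sampled each bird at both times, and libraries were paired by replicate number. After removal of condition means, r lay between 0.152 and 0.382 within birds, with a median of 0.236, and had a median of −0.0245 between birds. The genes and lists were chosen with earlier results of these data known. Genes named are the 6 members, the 3 smallest p of each list and the 5 most similar genes of each fitted member, of which 1 is not reported here. Alternatives were pseudocounts of 0.01 and 1, no filter, a stricter filter (mean FPKM of 1 or more), unscaled FPKM, unscaled TPM, quantile normalization, a block for bird, sample quality weights, depth as a covariate and leaving out each bird.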

Additional observations from a re-analysis of the deposited data

Results flagged for a closer look

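Within groups of 10 values, the gap of the highest or lowest value to its neighbor was compared with Dixon's 95% critical value in 18 groups (6 genes in fat libraries, in lean libraries and as within-bird changes). For normally distributed values chance flags about 1 in 20 groups, a rate that does not hold for groups with most values at 0. The 3 values past it all belong to GADD45A, which is listed at 0 in most libraries. They are the fat library of bird 5 with 0.365 normalized FPKM, the lean library of bird 6 with 0.395 normalized FPKM, and the within-bird change of bird 6, which was −2.31 on the log2 scale. Levels entered this comparison as unlogged normalized FPKM, and only the changes were on the log2 scale. Low levels that stand apart on the log2 scale were therefore not examined. Bird 7 held the lowest NR4A1 level in both conditions, 0.525 in lean libraries (next 6.28) and 0.141 in fat libraries (next 1.13).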

How the results depend on the processing

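The log2 fold changes of NR4A1, NR4A2, NR4A3, GADD45B and GADD45G kept their sign under all alternatives run that retained the gene, and with 1 bird left out they lay between −2.65 and −2.30, −2.48 and −1.95, −3.03 and −2.42, −2.29 and −1.94, and −0.66 and −0.28 in that order. NR4A2 was not retained at a mean FPKM of at least 1. The count of all genes called, 371 (68.7% lower in fat birds), was 120 without a filter, 882 with unscaled FPKM (97.1% lower), 1243 with unscaled TPM (98.6% lower), 178 with quantile normalization (59.6% lower), 160 with depth as a covariate and between 73 and 400 with 1 bird left out. With the replicate block, which uses the pairing of libraries by bird, it was 1034. The count over the 6 pathway lists, 9, was 5 without a filter, with sample quality weights or with depth as a covariate, 22 with unscaled FPKM, 30 with unscaled TPM, 25 with the replicate block and between 4 and 12 with 1 bird left out. The cause of these shifts was not tested. Pairs of members past adjustment in lean libraries numbered 0, with 1 at a pseudocount of 1 and between 0 and 1 with 1 bird left out. MAFF, KLF6, CEBPB and EEF1A1 were called under every alternative run that retained the gene. Read numbers per gene are not stated, and differences of NR4A2 and GADD45A are limited by values at or near 0.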
